A study of Mus musculus with 27 samples.

Results

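The neuronal differentiation genes are 10 genes named for a role in nerve cells: Tubb3, Gap43, Stmn2, Stmn4, Dcx, Map2, Elavl3, Elavl4, Gad1 and Pnoc. They were picked by symbol from the 51826 gene identifiers of the count files, after the identifiers were matched without version to the GENCODE mouse annotation, and 10 of 10 were found. The libraries come from E14, a line of mouse embryonic stem cells, and its embryoid bodies, which are floating aggregates in which stem cells differentiate into several lineages. The wild-type group is unmodified E14, the Quaking KO group is a line with a knockout of Quaking (gene Qk), and the group labelled Sam68 KO is a line with a knockout of Sam68 (gene Khdrbs1). All 3 lines have the E14 background and no other allele or agent is named in the labels. Each line was taken at days 0, 3 and 10 of embryoid body differentiation with 3 biological replicates per line and day, so there are 9 groups and 27 libraries. The labels name 1 line per knockout, so a difference between clones and the effect of a knockout cannot be told apart.

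Neurons are cells with a long axon and branched dendrites, and their tubulin tracks are built and remodelled by proteins that other cells use little. A progenitor that becomes a neuron switches on neuron-type tubulin, microtubule-binding proteins and neuron-specific RNA-binding proteins, and a maturing neuron makes the enzymes and peptides of its transmitter. Quaking and Sam68 belong to the STAR family of RNA-binding proteins, which act in splicing and RNA stability, and both are known from work on neural cells.

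The depth was 56.5 to 77.3 M counts per library: 66.4 to 71.3 M in wild type, 63.3 to 71.6 M in the Quaking KO and 56.5 to 77.3 M in the libraries labelled Sam68 KO. Levels are given as CPM, which are counts relative to library size, scaled for composition by the TMM method over the 27 libraries, as mean ± SD with n = 3 per group. Qk was lower in the Quaking KO than in wild type on each day (159 ± 9.35 against 235 ± 4.22 CPM at day 0, 117 ± 6.2 against 226 ± 7.64 at day 3, 204 ± 6.19 against 267 ± 15.3 at day 10), although its transcript was not absent. Khdrbs1 was not lost in the line labelled Sam68 KO, at 92.3 ± 4.49 against 99 ± 1.5 CPM at day 0, 97.2 ± 7.31 against 159 ± 7.24 at day 3 and 99.7 ± 1.61 against 115 ± 27.1 at day 10. In the Quaking KO Khdrbs1 was at 73.9 ± 4.08, 168 ± 15.3 and 107 ± 1.49 CPM on the same days. Qk in the Sam68-labelled libraries was at 209 ± 9.41, 182 ± 2.32 and 271 ± 8.73 CPM. These counts cover whole genes and do not show whether a shortened transcript is made. The Sam68-labelled samples carry library numbers of their own range, so for any difference drawn from them the batch of libraries and the knockout label are confounded and cannot be told apart.

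The genes lie on 9 chromosomes of GRCm38 and all 10 are annotated as protein coding. By role, the microtubule genes are Tubb3 (chr8:123411424-123422015), Map2 (chr1:66175273-66442583), Dcx (chrX:143855842-143933311), Stmn2 (chr3:8509360-8561606) and Stmn4 (chr14:66344296-66361680). The growth cone gene is Gap43 (chr16:42248442-42340651), and the RNA-binding genes are Elavl3 (chr9:22015005-22052023) and Elavl4 (chr4:110203722-110351909). The transmitter genes are Gad1 (chr2:70553072-70602014) and Pnoc (chr14:65400673-65425472). Tubb3, Map2, Stmn2, Stmn4 and Gad1 are on the plus strand and the other 5 on the minus strand. At most 3.1% of a gene's 50-base windows, in Elavl3, also occur in another gene. The strand setting of the counting is not given in the sources used here, and Gad1 overlaps the antisense gene Gad1os, which held 1 to 33 counts per library, so reads of that pair cannot be told apart without strand.

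Promoter sequences were taken from RefSeq on GRCm38.p6, as the 250 bases before the RefSeq start. Tubb3, Elavl3, Gad1, Dcx, Map2 and Elavl4 have an entry, and Gap43, Stmn2, Stmn4 and Pnoc do not. The promoters of Tubb3 (chr8:123411303-123411552, plus strand) and Elavl3 (chr9:22052024-22052273, minus strand) are shown because these genes had the most alike levels over the libraries of all pairs with an entry. Those of Gad1 (chr2:70561879-70562128, plus strand) and Dcx (chrX:143933220-143933469, minus strand) are shown because their levels followed other courses. Capitals mark the E-box CAGCTG and the GC box GGGCGG, or its complement CCGCCC on the other strand.
Tubb3: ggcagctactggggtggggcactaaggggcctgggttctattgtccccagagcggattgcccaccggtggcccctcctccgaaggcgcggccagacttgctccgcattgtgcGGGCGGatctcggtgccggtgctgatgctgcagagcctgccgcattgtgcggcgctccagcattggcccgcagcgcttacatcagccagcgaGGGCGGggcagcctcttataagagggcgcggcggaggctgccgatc
Elavl3: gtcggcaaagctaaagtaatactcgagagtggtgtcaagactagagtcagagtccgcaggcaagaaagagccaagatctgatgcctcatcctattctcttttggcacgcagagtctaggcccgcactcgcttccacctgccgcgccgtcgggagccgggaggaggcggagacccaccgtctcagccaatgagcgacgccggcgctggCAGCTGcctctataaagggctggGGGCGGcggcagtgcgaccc
Gad1: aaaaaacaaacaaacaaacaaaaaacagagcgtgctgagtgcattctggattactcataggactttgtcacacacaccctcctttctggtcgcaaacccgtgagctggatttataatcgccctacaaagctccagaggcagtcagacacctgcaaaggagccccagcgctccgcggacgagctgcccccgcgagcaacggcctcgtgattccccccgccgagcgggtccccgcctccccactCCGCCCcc
Dcx: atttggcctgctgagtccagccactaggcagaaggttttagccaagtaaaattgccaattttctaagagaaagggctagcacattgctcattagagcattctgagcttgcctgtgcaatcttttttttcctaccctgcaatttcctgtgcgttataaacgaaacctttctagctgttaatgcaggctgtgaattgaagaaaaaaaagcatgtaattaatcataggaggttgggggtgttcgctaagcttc
The RefSeq start of Elavl3 is also the GENCODE gene start, whereas those of Tubb3, Gad1 and Dcx lie inside the GENCODE gene.

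The printed promoters differ in their CpG content. Tubb3 holds 21 CpG dinucleotides, more than 83.7% of the 32851 promoter entries of this length, and Elavl3 holds 20, more than 82.1%. Gad1 holds 17 and Dcx holds 3, against a median of 6 over all entries. The E-boxes CAGCTG and CAGATG are motifs of neurogenic basic helix-loop-helix factors, and GGGCGG is the motif of Sp1-type factors. They were searched on both strands. Elavl3 holds 1 CAGCTG, which 13.0% of entries hold, and none of the 6 members with an entry holds CAGATG, which 14.4% of entries hold. GGGCGG occurs 2 times in Tubb3, 1 time in Elavl3 and 1 time in Gad1, and not in the Dcx window, and 32.7% of entries hold it. In the printed windows no match overlaps another, and a match is only a description of the sequence.

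The label was checked against other neuron markers. Of 10 markers of neurons, 2 to 6 per group reached a mean of 1 CPM. Rbfox3, a nuclear protein of mature neurons, stayed at a mean of 0.683 CPM or less in each of the 9 groups, and Slc17a6, the vesicular glutamate transporter, at 0.178 CPM or less. Nefl, a light neurofilament protein, made up most of the summed level. Its mean was 26.5 ± 0.605 CPM at day 0, 246 ± 24.5 at day 3 and 39 ± 3.65 at day 10 in wild type. Without Nefl, a split made after its values were seen, the other 9 markers summed to 4.27 CPM at day 0, 30.7 at day 3 and 10.9 at day 10 in wild type. The data therefore describe transcripts of neuronal genes in mixed embryoid bodies and do not show a population of mature neurons. In such bulk samples fewer cells of a type and less RNA per cell cannot be told apart.

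**Figure D1:**
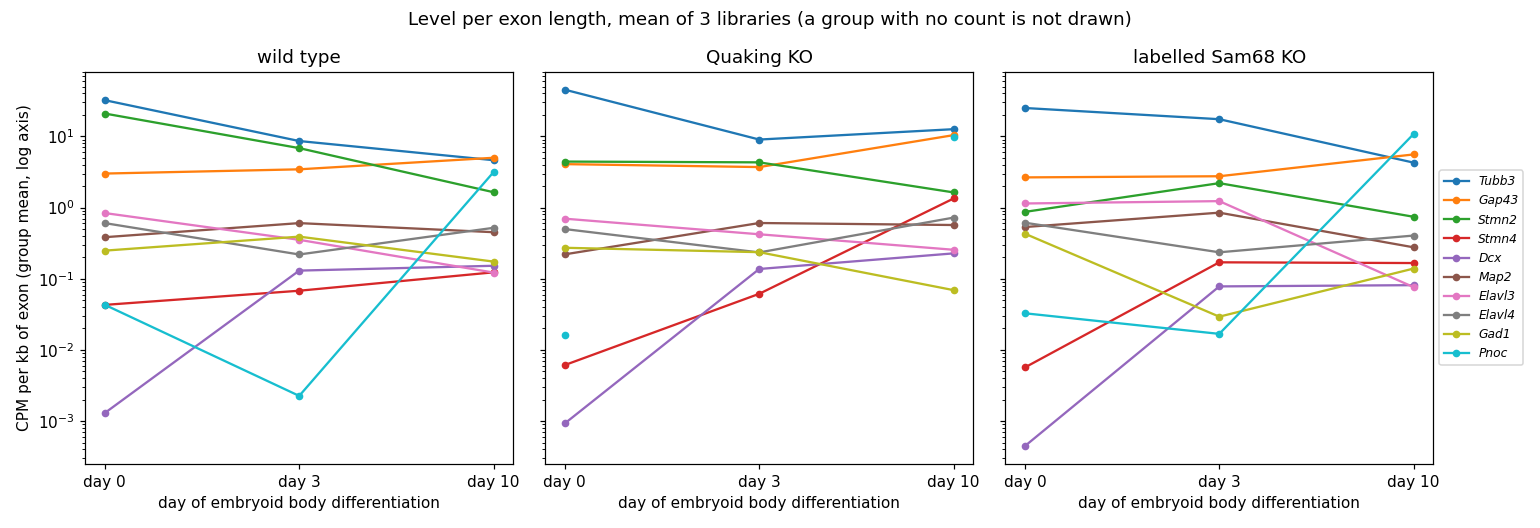
Mean level of each neuronal differentiation gene in CPM per kb of exon (log axis) at days 0, 3 and 10, 1 panel per line, n = 3 libraries per point, with no point where a group had no count. Per kb of merged exon Tubb3 is the highest in 7 of 9 groups, and Pnoc goes from the bottom of the scale at day 3 to between 3.15 and 10.8 CPM per kb at day 10.

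Levels of different genes were compared per kb of merged exon, which can be longer than the transcript that is made. The order depends on this length. In CPM, mean Stmn2 was above Tubb3 in wild type at day 0 (117 against 60.1), day 3 (38.3 against 16) and day 10 (9.18 against 8.62). In wild type at day 0 the order was Tubb3 (32.2 CPM per kb), Stmn2 (20.9), Gap43 (3), Elavl3 (0.836), Elavl4 (0.604), Map2 (0.383), Gad1 (0.248), Pnoc (0.043), Stmn4 (0.0429) and Dcx (0.0013). The libraries of neighbours in this order overlapped only for Pnoc and Stmn4. At day 3 in wild type Tubb3 was still first (8.59 CPM per kb), followed by Stmn2 (6.83) and Gap43 (3.44), and Gad1 and Elavl3 were the neighbours that overlapped. By day 10 Gap43 (5 CPM per kb) and Tubb3 (4.62) led and overlapped each other, and Pnoc (3.15) was next. At that age 5 of 9 neighbouring pairs overlapped in wild type, 6 of 9 in the Quaking KO and 3 of 9 in the libraries labelled Sam68 KO.

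The first question is how these genes moved during differentiation of wild-type E14. Between days 0 and 3, 8 of 10 members changed (3 higher, 5 lower), where 60.9% of the 21060 genes tested were called (30.8% higher, 30.1% lower). Between days 3 and 10, 8 of 10 changed (3 higher, 5 lower), where 76.1% were called (39.6% higher, 36.5% lower). Both counts include Pnoc, which passed the filter on low counts only through the day 10 libraries, where it was high. Its calls over time are therefore only a description of these libraries. The test throughout is the quasi-likelihood test of edgeR, and a gene is called at a Benjamini-Hochberg adjusted p under 0.05 over all genes tested. Values in parentheses give the log2 fold change ± SE and then the adjusted p. The members did not move as a block: the transcripts of Tubb3, Stmn2 and Elavl3 were highest in the undifferentiated cells and fell at both steps, whereas Dcx and Pnoc were near 0 in stem cells.

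Tubb3, the neuron-type beta tubulin, read 59.4, 58.4 and 62.5 CPM in the wild-type libraries at day 0, 16.8, 14.5 and 16.8 at day 3, and 7.44, 10.6 and 7.82 at day 10. The 3 days did not overlap, and the level fell 3.67-fold to day 3 (log2 fold change -1.87 ± 0.11 SE, adjusted p = 8.26e-09) and 1.85-fold to day 10 (-0.89 ± 0.12, 1.17e-05). Stmn2, a stathmin that destabilises microtubules in growing axons, read 110, 122 and 119 CPM at day 0, 37.1, 37.9 and 39.8 at day 3, and 10.2, 8.01 and 9.3 at day 10. It was the member with the largest wild-type loss of level in CPM, falling 2.99-fold (-1.58 ± 0.08, 7.52e-10) and then 4.16-fold (-2.06 ± 0.08, 5.26e-11).

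Map2, which binds microtubules of dendrites, rose to day 3 and fell to day 10. Its wild-type libraries read 5.97, 6.1 and 6.83 CPM at day 0, 10.1, 9.89 and 9.79 at day 3, and 8.68, 6.44 and 7.1 at day 10 (log2 fold changes 0.69 ± 0.1 and -0.42 ± 0.1). Dcx, doublecortin, a microtubule-binding protein of migrating young neurons, had 3 counts in all 3 wild-type libraries at day 0 and 332 at day 3. The ratio of CPM was 101 (95% counting interval 34.2 to 491), and the levels were 1.41, 1.84 and 1.69 CPM at day 3 and 2.38, 2.16 and 1.24 at day 10. The step to day 10 was not called (0.23 ± 0.22, adjusted p = 0.369). Leaving out replicate 3 of the wild-type day 10 libraries made it a call (0.45, adjusted p = 0.0388). Stmn4, another neural stathmin, stayed low in wild type, between 0.0325 CPM in its lowest day 0 library and 0.308 in its highest day 10 library. Its step from day 3 to day 10 missed the threshold (0.86 ± 0.38, adjusted p = 0.0508), and passed it without wild-type day 10 replicate 1 (1.01, 0.0307), without wild-type day 3 replicate 1 (1.09, 0.0446), with other size factors (0.92, 0.0397) and with the 6 libraries alone (0.86, 0.0454).

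Gap43, a membrane protein of growth cones, moved little in wild type. It read 4.81, 5 and 3.9 CPM at day 0, 4.84, 5.02 and 5.87 at day 3, and 6.87, 8.42 and 7.57 at day 10. Days 0 and 3 overlapped and the step between them was not called (0.23 ± 0.13, adjusted p = 0.135), whereas the rise to day 10 was 1.46-fold (0.54 ± 0.12, 0.00107).

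The RNA-binding genes Elavl3 and Elavl4 encode Hu proteins, which bind AU-rich RNA and mark neurons, and they parted after day 3. Elavl3 read 5.94, 5.6 and 5.75 CPM at day 0, 2.86, 1.96 and 2.45 at day 3, and 1.22, 0.756 and 0.539 at day 10 in wild type, falling at both steps (-1.22 ± 0.2 and -1.53 ± 0.23). Elavl4 read 3.73, 2.83 and 3.2 CPM at day 0, 1.11, 1.27 and 1.15 at day 3, and 3.18, 2.92 and 2.3 at day 10. It fell to day 3 (-1.44 ± 0.16, adjusted p = 3.53e-06) and rose again to day 10 (1.25 ± 0.16, 8.21e-06), when its libraries overlapped those of day 0.

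Among the transmitter genes, Gad1 encodes the GABA-making glutamate decarboxylase. Its wild-type libraries read 1.64, 2.16 and 1.88 CPM at day 0, 2.67, 3.35 and 2.91 at day 3, and 1.48, 1.43 and 1.08 at day 10. The day 3 libraries were the highest, with a rise of 0.68 ± 0.15 (adjusted p = 0.00155) and a fall by 1.16 ± 0.16 on the log2 scale (1.31e-05). Pnoc encodes the precursor of the opioid-like peptide nociceptin. It had 17 counts over the wild-type day 0 libraries, 1 count at day 3 and 1558 at day 10, when the libraries read 5.14, 6.7 and 8.54 CPM. The ratio of day 10 to day 3 was 1370 with a counting interval of 246 to 54200, and day 0 was 18.7 times day 3 with an interval of 2.93 to 781.

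**Figure D2:**
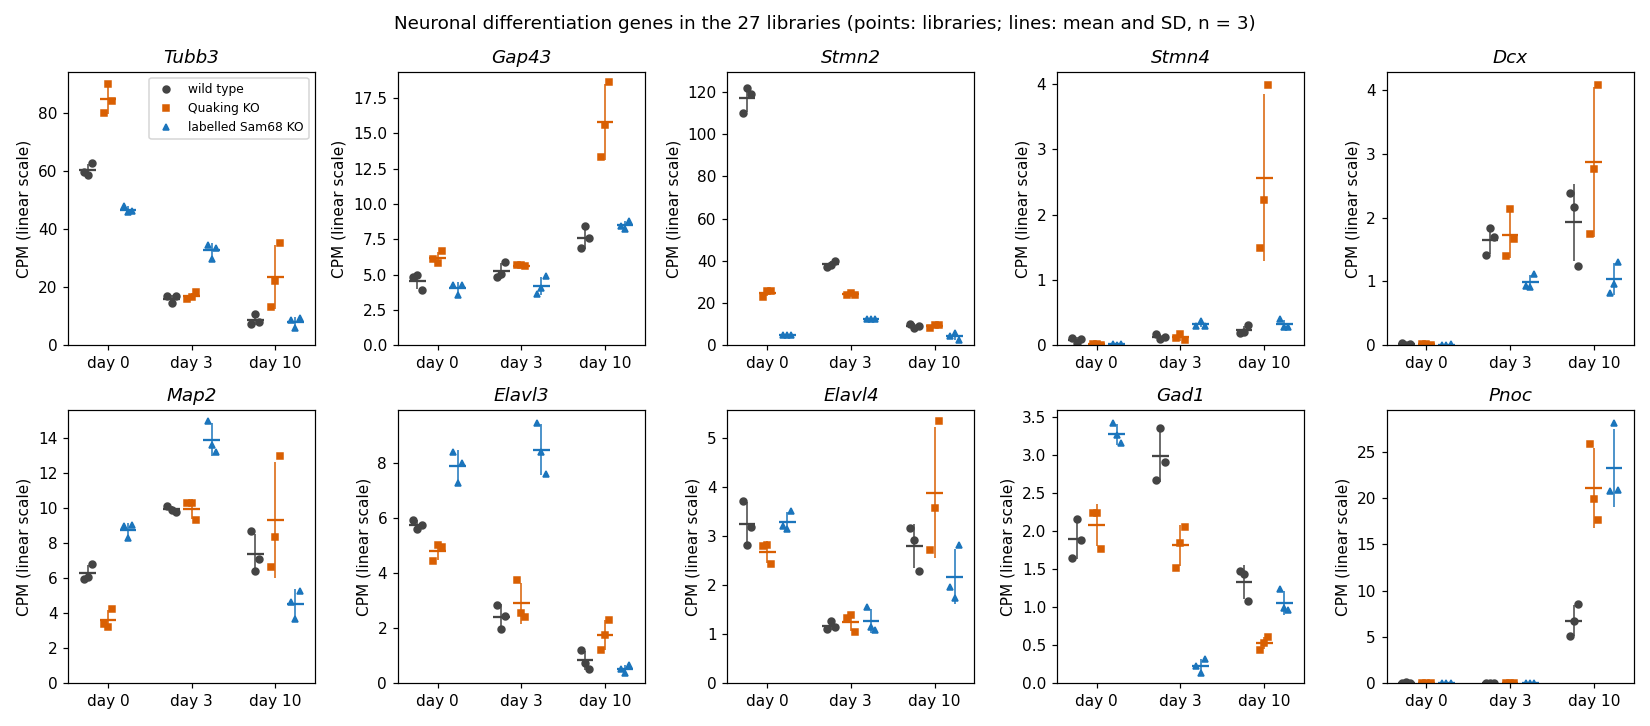
CPM (linear scale) of the 10 genes in each library at days 0, 3 and 10: circles wild type, squares Quaking KO, triangles labelled Sam68 KO, with a horizontal line at the mean and a vertical line for the SD (n = 3). Stmn2 at day 0 separates the 3 lines without overlap (110 to 122, 22.9 to 25.8 and 4.67 to 4.96 CPM), and Pnoc is at or near 0 until day 10 in each line.

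The knockout lines were followed over the same days, each fitted alone. In the Quaking KO 6 of 10 members changed from day 0 to day 3, 3 higher and 3 lower, where 69% of 20855 genes were called (34.2% higher, 34.8% lower). From day 3 to day 10 it was 8 of 10, 5 higher and 3 lower, where 78.1% were called (41.1% higher, 37% lower). In the libraries labelled Sam68 KO, 7 of 10 changed at the first step, 4 higher and 3 lower, where 72.9% of 20646 genes were called (37% higher, 35.9% lower). At the second step it was 8 of 10, 4 in each direction, where 86% were called (43.5% higher, 42.5% lower). These shares are near those of all genes, and each pair of steps shares the day 3 libraries. The counts include Stmn4 at both steps in the Quaking KO and Pnoc at the second step in both lines. Stmn4 in the Quaking KO and Pnoc in both lines passed the filter on low counts only through the day 10 libraries, where they were high.

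Stmn2 took a different course in each line. In the Quaking KO it read 22.9, 25.8 and 25.5 CPM at day 0 and 23.9, 24.6 and 23.9 at day 3, a step not called (-0.02 ± 0.07, adjusted p = 0.803), and then 8.31, 9.75 and 9.32 at day 10 (-1.36 ± 0.07, 7.35e-10). In the Sam68-labelled libraries it started at 4.67, 4.96 and 4.96 CPM, rose to 12.4, 12.2 and 12.3 at day 3 (1.33 ± 0.16, 1.19e-06) and fell to 4.15, 5.63 and 2.68 at day 10 (-1.55 ± 0.16, 1.04e-07). Wild type thus fell at the first step, where the Quaking KO passed no test and the Sam68-labelled line rose; the tests of these differences are given with each line below.

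Tubb3 fell from day 0 to day 3 in both knockout lines too (Quaking KO -2.31 ± 0.25, adjusted p = 1.76e-06; Sam68-labelled -0.52 ± 0.09, 8.83e-05). At the next step, to day 10, the Sam68-labelled level fell 4.06-fold (-2.02 ± 0.11, 1.41e-11). The Quaking KO went from 15.8, 16.6 and 18.2 CPM to 13.1, 22.2 and 35, which overlapped and was not called (0.52 ± 0.24, adjusted p = 0.0639). That step was called without Quaking KO day 10 replicate 1, the lowest of the 3 (0.82, adjusted p = 6.02e-05), with other size factors (0.56, 0.0383), without a filter on low counts (0.52, 0.000311) and with a replicate block (0.47, 0.0401). Map2 rose to day 3 in both knockout lines (1.48 ± 0.21 and 0.66 ± 0.1). Its second step was a fall by 1.61 ± 0.1 in the Sam68-labelled libraries, and was not called in the Quaking KO (-0.05 ± 0.19, adjusted p = 0.83) except without Quaking KO day 10 replicate 3 (-0.38, 0.0111).

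Dcx and Stmn4 were almost absent from stem cells in both knockout lines and appeared later. Dcx had 2 counts over the Quaking KO day 0 libraries and 354 at day 3 (ratio of CPM 150, counting interval 41.2 to 1240), and 1 against 194 in the Sam68-labelled libraries (182, 32.3 to 7240). It rose again to day 10 in the Quaking KO (0.77 ± 0.26, adjusted p = 0.0166), although the libraries overlapped. That call was lost without replicate 1 (0.59, 0.0907) or 3 (0.69, 0.0629) of day 3, or without replicate 3 of day 10 (0.41, 0.104). In the Sam68-labelled libraries that step was not called (0.07 ± 0.2, adjusted p = 0.759). Stmn4 had 2 counts at day 0 in each knockout line, and 24 (Quaking KO) and 64 (Sam68-labelled) at day 3, which are ratios of 10.2 (2.52 to 88.8) and 30.1 (7.99 to 254). The first of these rises lost its call without any 1 of Quaking KO day 0 replicates 1, 2 or 3 or day 3 replicate 2 (adjusted p = 0.0537, 0.0578, 0.083 and 0.103). Stmn4 then rose 22.2-fold to day 10 in the Quaking KO (4.47 ± 0.43, adjusted p = 5.02e-07) and was not called in the Sam68-labelled libraries (-0.02 ± 0.27, 0.942). In the Quaking KO fit it passed the filter on low counts only through the day 10 libraries (115, 150 and 309 counts), where it was high. Its calls over time in that line are therefore only a description of these libraries.

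Gap43 was not called at the first step in either knockout line (-0.12 ± 0.12 and 0.05 ± 0.11) and rose at the second, 2.9-fold in the Quaking KO (1.53 ± 0.11, adjusted p = 3.14e-08) and 2.04-fold in the Sam68-labelled libraries (1.03 ± 0.1, 8.14e-08). Elavl4 fell and rose again in both, as in wild type: -1.07 ± 0.23 and 1.67 ± 0.23 in the Quaking KO, -1.39 ± 0.18 and 0.79 ± 0.18 in the Sam68-labelled libraries. Elavl3 fell at both steps in the Quaking KO (-0.71 ± 0.2 and -0.68 ± 0.22). The Sam68-labelled libraries kept it at 9.46, 8.4 and 7.59 CPM at day 3, a step not called (0.1 ± 0.1, adjusted p = 0.402), before a 16-fold fall to 0.532, 0.389 and 0.653 CPM at day 10 (-4 ± 0.14, 9.45e-14).

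Gad1 behaved in opposite ways in the knockout lines at the second step. In the Quaking KO it read 2.24, 2.23 and 1.76 CPM at day 0 and 1.52, 1.84 and 2.05 at day 3, not called (-0.18 ± 0.16, adjusted p = 0.331), and then fell to 0.441, 0.535 and 0.607 (-1.73 ± 0.18, 1.34e-06). The Sam68-labelled libraries went from 3.42, 3.26 and 3.15 CPM to 0.222, 0.135 and 0.316 at day 3, a 14.6-fold fall (-3.87 ± 0.2, 3.84e-11), and back up to 1.24, 0.986 and 0.959 at day 10 (2.25 ± 0.23, 1.24e-07). Pnoc had 6 counts at day 0, none at day 3 and 4699 at day 10 in the Quaking KO. Against a floor of 3 counts over the day 3 libraries, day 10 was 1430-fold higher and day 0 was 2.36-fold higher. These ratios leave out the counting error of the higher group, and the day 0 libraries held 1, 0 and 5 counts. The fall to day 3 was not called (adjusted p = 0.0716), and was called without Quaking KO day 0 replicate 2 (0.0295), without a filter (0.00856), with a replicate block (0.0466) and with DESeq2 (0.0108). In the Sam68-labelled libraries Pnoc had 13, 7 and 5340 counts at the 3 days.

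The second question is what differed between the Quaking KO and wild type at each day. At day 0, 6 of the 7 members that passed the count filter were called (2 higher, 4 lower), against 39.7% of 19841 genes (19.4% higher, 20.3% lower). Stmn4, Dcx and Pnoc had too few counts to be tested. At day 3, 2 of 9 tested members were called, both lower, against 7.01% of 19711 genes (3.93% lower). That fit did not use the replicate numbers as pairs, although they met a check for pairs there. With a replicate block 2 members and 1891 genes were called, against 1381 genes without it. At day 10, 5 of 10 were called, 4 higher and 1 lower, against 11.7% of 20503 genes (4.96% higher, 6.71% lower). The median log2 fold change of the 10 members at day 10 was 0.8, and -0.02 over all genes tested. The change of the Quaking KO effect from day 0 to day 3 was called for 4 of 8 tested members, 2 up and 2 down, against 15.9% of 19949 genes (9.45% up, 6.45% down). From day 3 to day 10 it was called for 4 of 10, each up, against 3.58% of 21017 genes (2.03% up). The comparisons of both knockout lines use the same wild-type libraries.

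Among the microtubule genes, Stmn2 was 4.76-fold lower in the Quaking KO at day 0 (-2.25 ± 0.05, adjusted p = 3.69e-17) and 1.59-fold lower at day 3 (-0.67 ± 0.05, 2.19e-07). By day 10 the libraries overlapped wild type and the difference was not called (-0.03 ± 0.2, 0.945). The difference between the effects of days 3 and 0 was 1.58 ± 0.07 (adjusted p = 1.26e-10) and that of days 10 and 3 was 0.65 ± 0.12 (0.0113). Map2 was 1.75-fold lower at day 0, at 3.38, 3.22 and 4.26 against 5.97, 6.1 and 6.83 CPM (-0.81 ± 0.09, 1.23e-06), and not called at day 3 (0 ± 0.07, 0.993) or day 10 (0.32 ± 0.23, 0.433).

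Tubb3 was 1.4-fold higher in the Quaking KO at day 0, at 79.7, 89.8 and 84.1 CPM (0.48 ± 0.04, adjusted p = 1.42e-08), and not called at day 3 (0.07 ± 0.08, 0.695). At day 10 it was 2.69-fold higher (1.43 ± 0.31, 0.0125): the 3 libraries read 13.1, 22.2 and 35 CPM, all above the wild-type 7.44, 10.6 and 7.82, and spread more widely than any other group of this gene relative to their mean. Stmn4 showed the largest fold among the members at day 10, 10.7-fold (3.42 ± 0.39, 0.000453), with 1.49, 2.23 and 3.99 CPM against 0.19, 0.208 and 0.308. Its level per exon length stayed below that of Tubb3, at 1.34 against 12.6 CPM per kb. Dcx was not called at day 3 (0.07 ± 0.16, 0.864) or day 10 (0.55 ± 0.32, 0.316), where the Quaking KO libraries read 1.75, 2.76 and 4.08 CPM and overlapped wild type.

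Gap43 was the growth cone gene and was higher at both ends of the time course. The Quaking KO read 6.13, 5.81 and 6.65 CPM at day 0 (0.43 ± 0.1, adjusted p = 0.00151), and 13.3, 15.6 and 18.6 at day 10, each above the highest wild-type library of 8.42 (1.04 ± 0.12, 0.000617). At day 3 the 5.65, 5.67 and 5.59 CPM of the Quaking KO overlapped wild type (0.1 ± 0.11, 0.667). The rise of the effect from day 3 to day 10 was called for Gap43 (0.95 ± 0.18, 0.00952), Stmn4 (3.56 ± 0.74, 0.0161) and Tubb3 (1.37 ± 0.35, 0.0454). The call for Stmn4 was lost without wild-type day 3 replicate 1 (3.34, 0.0632). That for Tubb3 was lost in 10 of 12 fits that left out 1 library, at 0.96 without Quaking KO day 10 replicate 3 (0.0517) and 1.43 without replicate 2 of the same group (0.0697), with adjusted p from 0.0517 to 0.107 over the 10.

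The Hu genes were slightly lower in the Quaking KO at day 0. Elavl3 read 4.43, 5.03 and 4.96 against 5.94, 5.6 and 5.75 CPM (-0.27 ± 0.08, adjusted p = 0.00936). Elavl4 read 2.81, 2.82 and 2.43 against 3.73, 2.83 and 3.2 CPM (-0.29 ± 0.11, 0.0486). The Elavl4 call was lost with other size factors (0.0592), a replicate block (0.0606), the 6 libraries alone (0.0656) and DESeq2 (0.109), and without day 0 replicate 1 (0.0576), 2 (0.0615) or 3 (0.195) of the Quaking KO, or 1 (0.26) or 3 (0.0637) of wild type. At day 10 Elavl3 read 1.22, 1.77 and 2.29 CPM in the Quaking KO against 1.22, 0.756 and 0.539, which did not pass the threshold (1.05 ± 0.32, 0.0583). It passed when replicate 1 of either group was left out (Quaking KO 1.26, 0.0375; wild type 1.43, 0.013), without a filter on low counts (1.06, 0.00881) and with DESeq2 (1.06, 0.0133). Elavl4 at day 10 was not called (0.45 ± 0.25, 0.301).

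The transmitter genes moved in opposite directions at day 10. Gad1 was lower in the Quaking KO, at 0.441, 0.535 and 0.607 CPM against 1.48, 1.43 and 1.08, with no overlap (-1.35 ± 0.21, adjusted p = 0.00232). It was also lower at day 3, at 1.52, 1.84 and 2.05 against 2.67, 3.35 and 2.91 CPM (-0.72 ± 0.15, 0.00862), a call lost without wild-type day 3 replicate 2 (-0.63, 0.0553), and not called at day 0 (0.12 ± 0.13, 0.501). The change of the Gad1 effect from day 0 to day 3 was called (-0.85 ± 0.2, 0.00704). Pnoc was 3.06-fold higher at day 10, at 25.9, 19.9 and 17.6 CPM against 5.14, 6.7 and 8.54 (1.61 ± 0.19, 0.000601), and no library of the 2 groups overlapped.

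The Quaking KO libraries of day 10 differed among themselves in a shared way. Replicate 3 was the highest of the 3 for 8 of 10 members, and replicate 1 was the lowest for 9 of 10; Pnoc went the other way, with 25.9 CPM in replicate 1 and 17.6 in replicate 3. The summed level of 10 neuron markers was 45 CPM in replicate 1, 62.5 in replicate 2 and 74.8 in replicate 3, and 12, 14.3 and 18.4 CPM without Nefl. The neural progenitor markers summed to 84.3, 97.2 and 115 CPM, the cardiac muscle markers to 325, 449 and 621 CPM, and the mesenchyme markers to 7370, 5970 and 4890 CPM. The part of this difference between libraries in the day 10 results was not tested. Leaving out replicate 3, Tubb3, Gap43, Stmn4, Gad1 and Pnoc remained called at day 10, as in each other fit that left out 1 library of the 2 groups.

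**Figure D3:**
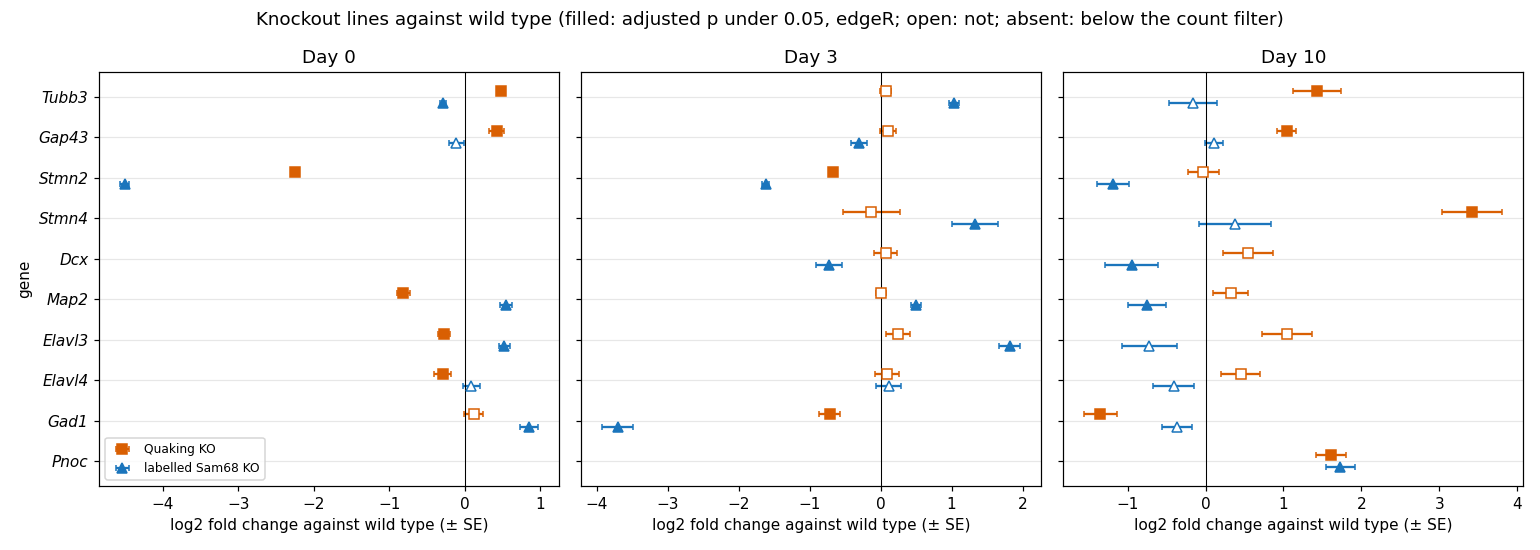
Log2 fold change (± SE) of each gene against wild type at days 0, 3 and 10, squares for the Quaking KO and triangles for the line labelled Sam68 KO; filled symbols passed an adjusted p of 0.05 in edgeR, and genes below the count filter are not drawn. Stmn2 is far to the left in both lines at day 0 (-2.25 and -4.51), Gad1 at day 3 in the Sam68-labelled line (-3.71), and Pnoc is to the right in both at day 10 (1.61 and 1.73).

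The third question is what differed between the line labelled Sam68 KO and wild type. At day 0, 5 of 7 tested members were called (3 higher, 2 lower), where 74.4% of 19841 genes were called (36.5% higher, 37.9% lower). At day 3 it was 8 of 9 (4 higher, 4 lower), where 73.1% of 19711 were called (36% higher, 37.1% lower). The 4 higher members include Stmn4, which passed the count filter only through this line. At day 10 it was 4 of 10 (1 higher, 3 lower), where 50.6% of 20503 were called (22.8% higher, 27.8% lower). The change of the effect was called for 5 of 9 tested members from day 0 to day 3 (4 up, 1 down), against 33.8% of 21008 genes (18% up, 15.9% down). From day 3 to day 10 it was called for 5 of 10 (2 up, 3 down), against 54.2% of 21541 (30.3% up, 23.9% down). The members' shares in the comparisons by day lie near those of all genes, so the sizes of the changes and their directions carry the description. The confounding of library numbers with the label applies to each of them.

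Stmn2 was lower on every day, 22.8-fold at day 0 (-4.51 ± 0.06, adjusted p = 7.52e-21), 3.08-fold at day 3 (-1.62 ± 0.05, 1.34e-12) and 2.28-fold at day 10 (-1.19 ± 0.21, 0.000692). Its libraries did not overlap wild type on any day, and the effect moved by 2.91 ± 0.07 from day 0 to day 3 (1.25e-16). Its effect moved by a further 0.52 ± 0.23 to day 10, which was not called (0.0722). That change was called without Sam68 KO day 10 replicate 3 (0.72, 0.00153) or wild-type day 10 replicate 1 (0.57, 0.0305), and without a filter on low counts (0.57, 0.00565).

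Tubb3, Map2 and Elavl3 stood above wild type at day 3. Tubb3 read 34.6, 29.7 and 33.5 CPM against 16.8, 14.5 and 16.8 (1.03 ± 0.07, adjusted p = 8.07e-09), and Map2 15, 13.6 and 13.2 against 10.1, 9.89 and 9.79 (0.5 ± 0.07, 8.01e-06). Elavl3 was 3.53-fold higher, at 9.46, 8.4 and 7.59 against 2.86, 1.96 and 2.45 CPM (1.82 ± 0.15, 4.98e-08). At day 0 Map2 (0.55 ± 0.08) and Elavl3 (0.53 ± 0.07) were also higher, whereas Tubb3 was lower, at 47.9, 45.8 and 46.1 CPM (-0.29 ± 0.04, 3.14e-06). By day 10 none of these 3 was higher: Tubb3 was not called (-0.16 ± 0.31, 0.7), and Elavl3 was not called (-0.72 ± 0.35, 0.111) unless wild-type day 10 replicate 3 was left out (-0.94, 0.0444). Map2 was 1.68-fold lower (-0.75 ± 0.24, 0.0205), a call lost without Sam68 KO day 10 replicate 1 (-0.75, 0.0503) or 2 (-0.59, 0.0862) or wild-type day 10 replicate 1 (-0.61, 0.0599). The effect fell from day 3 to day 10 for Tubb3 (-1.11 ± 0.21, 0.000464), Map2 (-1.17 ± 0.18, 7.1e-05) and Elavl3 (-2.46 ± 0.35, 4.17e-05).

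Dcx and Stmn4 went opposite ways at day 3. Dcx read 0.934, 0.914 and 1.11 CPM against 1.41, 1.84 and 1.69, with no overlap (-0.73 ± 0.18, adjusted p = 0.00157). At day 10 it was 1.94-fold lower (-0.95 ± 0.34, 0.0364), although the libraries overlapped, and the call was lost without Sam68 KO day 10 replicate 1 (-0.79, 0.122) or 2 (-0.88, 0.1) or wild-type day 10 replicate 1 (-0.77, 0.102) or 2 (-0.86, 0.0937). Stmn4 was 2.52-fold higher at day 3, at 0.301, 0.375 and 0.301 CPM against 0.169, 0.102 and 0.118 (1.33 ± 0.33, 0.00171), and not called at day 10 (0.38 ± 0.46, 0.518). At day 3 it passed the count filter only through the Sam68-labelled libraries, where it was higher (19, 25 and 20 counts). Wild type held 11, 7 and 8 counts and the Quaking KO 7, 12 and 5. Its call at day 3 is therefore only a description of these libraries. Stmn4 counts at day 0 were 2 in each knockout line and 15 in wild type, so wild type was 7.06 times the Quaking KO (counting interval 1.64 to 63.6) and 7.56 times the Sam68-labelled libraries (1.76 to 68.2), with no test between replicates.

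Gap43 and Elavl4 differed least from wild type. Gap43 was 1.24-fold lower at day 3 (-0.31 ± 0.11, adjusted p = 0.0179), a call lost without Sam68 KO day 3 replicate 1 (-0.22, 0.101) or 2 (-0.29, 0.0583) or wild-type day 3 replicate 3 (-0.23, 0.0934). It was not called at day 0 (-0.11 ± 0.1, 0.353) except without wild-type day 0 replicate 3 (-0.22, 0.0486), nor at day 10 (0.11 ± 0.12, 0.487). Elavl4 did not pass the test (0.09 ± 0.11 at day 0, 0.11 ± 0.17 at day 3 and -0.41 ± 0.26 at day 10).

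Gad1 changed side between days 0 and 3. The Sam68-labelled libraries held 3.42, 3.26 and 3.15 CPM at day 0 against 1.64, 2.16 and 1.88 (0.86 ± 0.12, adjusted p = 2.17e-06). At day 3 they were 13.1-fold lower (-3.71 ± 0.22, 1.04e-09), with 44 counts over the 3 libraries against 600 in wild type. The effect moved by -4.55 ± 0.24 to day 3 (1.65e-11) and by 3.43 ± 0.32 to day 10 (9.66e-07), when the libraries overlapped and the difference was not called (-0.37 ± 0.19, 0.137). Pnoc was 3.32-fold higher at day 10, at 20.8, 28.1 and 20.9 CPM against 5.14, 6.7 and 8.54 (1.73 ± 0.19, 2.42e-05), and its 7 counts at day 3 against 1 in wild type gave a ratio whose counting interval reached from 0.921 to 323.

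At day 10 the 2 knockout lines were also set against each other. Of 10 members 9 were called, 8 lower and 1 higher in the Sam68-labelled line, where 56.6% of 20503 genes were called (25.9% higher, 30.7% lower). The median log2 fold change was -1.11 over the members and -0.03 over all genes. Stmn4 was 8.19-fold lower (-3.03 ± 0.37, adjusted p = 3.91e-05), Elavl3 3.4-fold (-1.77 ± 0.33, 0.000939), Tubb3 3-fold (-1.58 ± 0.31, 0.00112), Dcx 2.84-fold (-1.5 ± 0.34, 0.00268) and Stmn2 2.23-fold (-1.16 ± 0.21, 0.000698). Map2 (-1.07 ± 0.24) and Gap43 (-0.92 ± 0.12) were lower as well, and Elavl4 (-0.86 ± 0.26, 0.0147) lost its call without Sam68-labelled replicate 1 (-0.77, 0.0542) or 2 (-0.7, 0.0624) or Quaking KO replicate 3 (-0.55, 0.0703). Gad1 was higher in the Sam68-labelled line (0.99 ± 0.21, 0.00203). Pnoc did not pass the test (0.12 ± 0.18, 0.604): the Quaking KO held 25.9, 19.9 and 17.6 CPM and the Sam68-labelled line 20.8, 28.1 and 20.9.

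Another 110 genes in 8 lists were read beside the members. They are neuronal genes except for a list of 12 repressors of neuronal genes. Totals over the lists include these repressors, of which 0 were called in the Quaking KO at day 3 or day 10. At day 10 in the Quaking KO, 16 of the 103 tested were higher, 5 lower and 82 not called, where 4.96% of all genes were higher and 6.71% lower. Of 17 synapse and vesicle genes 6 were called, each higher (median log2 fold change 0.38, against -0.02 over all genes), among them Syp, a synaptic vesicle protein (4.27 ± 0.588 against 1.99 ± 0.582 CPM, 1.08 ± 0.2), and Sv2a, another vesicle protein (27.4 ± 6.71 against 14.9 ± 0.0984, 0.86 ± 0.14). Of 19 axon and cytoskeleton genes 3 were higher: Stmn3, another neural stathmin (1.72 ± 0.18, adjusted p = 0.000308), Ina, an internexin filament (0.88 ± 0.17), and Map1b, which binds microtubules (0.4 ± 0.08). Neurogenic transcription factors gave 3 higher and 1 lower of 15, with Ebf3 (23.6 ± 0.43 against 10 ± 0.915 CPM, 1.22 ± 0.13) and Pou4f1 (1.13 ± 0.3) higher and Isl1 lower (-0.49 ± 0.11).

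Among other list genes at day 10, the Quaking KO had less Ddc, the decarboxylase of dopamine and serotonin synthesis (13.7 ± 0.672 against 23.2 ± 3.32 CPM, -0.78 ± 0.1), and less of the glutamate receptor Gria2 (-0.69 ± 0.17). Oprl1, the receptor of the Pnoc peptide, was higher, at 9.69 ± 1.32 against 5.59 ± 0.382 CPM (0.77 ± 0.12, adjusted p = 0.00232), and Oprk1, the kappa opioid receptor, lower (-1.36 ± 0.17, 0.000697). At day 3, 5 of 84 tested list genes were higher and 5 lower, where 3.08% of all genes were higher and 3.93% lower, with Sv2a higher (17.5 ± 0.367 against 10.5 ± 0.276 CPM, 0.74 ± 0.06, 2.02e-06) and Lhx1, a LIM homeodomain factor, lower (1.11 ± 0.675 against 5.19 ± 3.14 CPM, -2.21 ± 0.43, 0.00493).

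In the Sam68-labelled line at day 3, 37 of 84 tested list genes were higher and 25 lower, where 36% of all genes were higher and 37.1% lower, so the lists' total share called is near the 73.1% of all genes. These totals pool the repressors, which were mostly lower, with the neuronal genes. Neuronal RNA-binding proteins gave 10 called of 12, each higher (median 0.53 against 0 over all genes), with Srrm4, a splicing factor of neural microexons (1.61 ± 0.18), Celf3 (1.3 ± 0.15) and Nova2 (1.17 ± 0.13). Repressors of neuronal genes gave 2 higher and 8 lower of 12, with Id1 (6.23 ± 0.584 against 20.1 ± 3.47 CPM, -1.67 ± 0.13), Id3 (-1.45 ± 0.1) and Hes1 (-0.81 ± 0.07), which hold back neurogenic factors, among the lower ones. Neurogenic transcription factors gave 6 higher and 2 lower of 9: Myt1l, a neuronal zinc finger factor, was higher (2.01 ± 0.122 against 0.304 ± 0.0607 CPM, 2.73 ± 0.19), and Isl1 (-1.35 ± 0.12) and Lhx1 (-2.32 ± 0.44) were lower. Axon and cytoskeleton genes gave 8 higher and 7 lower of 19, with the kinesin Kif5c higher (1.03 ± 0.07) and Nefl lower (-1.14 ± 0.12). Among GABA neuron genes, Gad2, the second GABA-making enzyme, was lower like Gad1 (1.01 ± 0.206 against 2.58 ± 0.425 CPM, -1.34 ± 0.19).

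At day 10 the Sam68-labelled line had 13 list genes higher and 39 lower of 103, a total share near the 50.6% of all genes called (22.8% higher, 27.8% lower). The totals include the repressors of neuronal genes, with 3 higher and 1 lower of 12. Synapse and vesicle genes gave 2 higher and 9 lower of 17 (median -0.5, against -0.04 over all genes), with Nsg1 (-1.24 ± 0.15) and Syp (-1.05 ± 0.21) lower. Gria2 was lower, at 0.411 ± 0.105 against 2.43 ± 0.276 CPM (-2.6 ± 0.2), and the peptide genes Npy (-2.19 ± 0.39) and Penk (-1.73 ± 0.25) were lower too, as was Oprk1 (-1.4 ± 0.17). Against this direction, Nefl was higher, at 153 ± 25.7 against 39 ± 3.65 CPM (1.93 ± 0.18), as were Lhx6, a factor of GABA interneurons (1.17 ± 0.14), and Slc6a4, the serotonin transporter (1.15 ± 0.14). The lists were drawn up with earlier results of these libraries known and are descriptions of these samples.

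**Figure D4:**
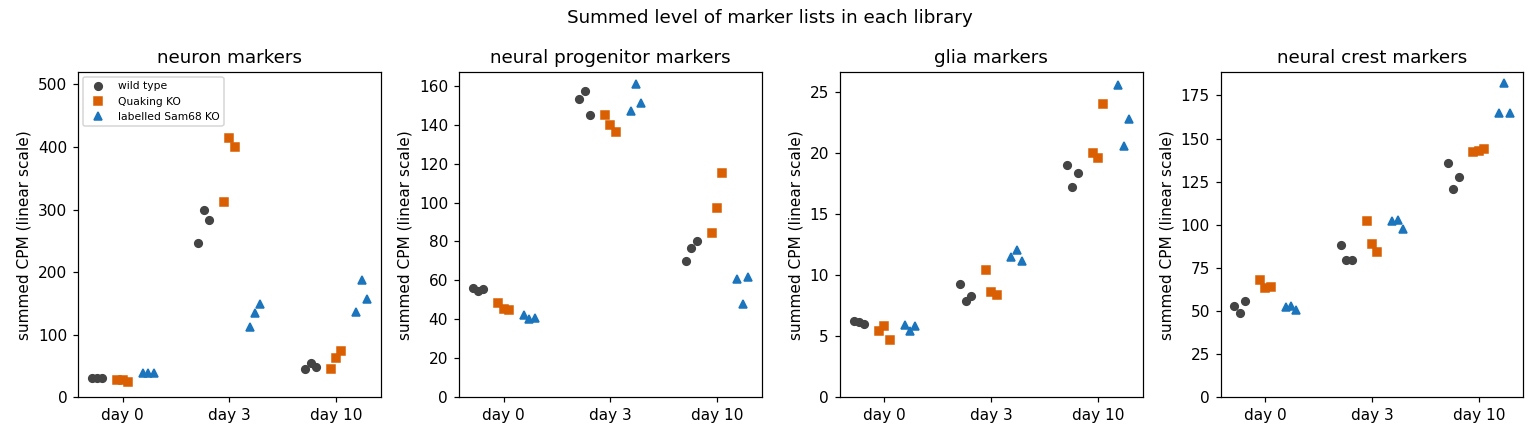
Summed CPM (linear scale) of marker lists for neurons, neural progenitors, glia and neural crest in each library, circles wild type, squares Quaking KO and triangles labelled Sam68 KO. The neuron sum, mostly Nefl, is highest at day 3 in wild type and the Quaking KO (up to 415 CPM), and at day 10 the Quaking KO libraries reach 84.3 to 115 CPM for progenitor markers against 69.8 to 80.4 in wild type.

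Marker sums of the cell types that embryoid bodies can hold moved as well. At day 10 the 10 neural progenitor markers summed to 84.3 to 115 CPM in the Quaking KO, 69.8 to 80.4 in wild type and 48 to 61.9 in the Sam68-labelled libraries, which is also the order of the group means of Tubb3, Dcx, Map2, Elavl3 and Elavl4. Of these genes, only Tubb3 was called against wild type in the Quaking KO, and only Dcx and Map2 in the Sam68-labelled line. The other 5 members had other orders. The neuron markers, mostly Nefl, summed to 45 to 74.8, 46.1 to 54.6 and 137 to 188 CPM in the same 3 groups, which is highest in the Sam68-labelled libraries. Without Nefl the mean sums were 14.9, 10.9 and 7.15 CPM. Glia markers reached a mean of 1 CPM for only 2 of 10 genes in each line at day 10, with sums of 17.2 to 19, 19.6 to 24 and 20.6 to 25.6 CPM in wild type, Quaking KO and Sam68-labelled libraries. Neural crest markers, which share Sox10 with the glia list, summed to 121 to 136, 142 to 144 and 165 to 182 CPM. Neuroendocrine markers, for cells that also make peptides, gave 32.9 to 44.8, 37.1 to 42.2 and 29 to 31.3 CPM. At day 3 the neural progenitor sums lay closer together, at 136 to 145 CPM in the Quaking KO and 145 to 157 in wild type. The Sam68-labelled libraries had 147 to 161 CPM at that day. A link between these sums and the members was not tested.

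Non-neural lists differed between the lines at day 10 as well. Cardiac muscle markers summed to 1110 to 1120 CPM in wild type, 325 to 621 in the Quaking KO and 2270 to 2420 in the Sam68-labelled libraries. Mesenchyme markers gave 6700 to 8790, 4890 to 7370 and 3080 to 4550 CPM, yolk sac endoderm markers 2070 to 2880, 1520 to 1750 and 2610 to 3410, and epithelium markers 937 to 1060, 797 to 919 and 2020 to 2400. Skeletal muscle markers stayed between 3.93 and 5.98 CPM. Pluripotency markers had fallen from 4340 to 4610 CPM at day 0 to 116 to 141 at day 10 in wild type, with 155 to 166 in the Quaking KO and 105 to 137 in the Sam68-labelled libraries. The share of the lines' different cell makeup in the members' values was not tested.

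Over the 27 libraries the members were not of 1 kind, as their correlations describe. On log2(CPM + 1), Gap43 and Pnoc had a Pearson r of 0.84, Gap43 and Stmn4 0.83, and Tubb3 and Elavl3 0.83. At the other end, Elavl3 and Pnoc had an r of -0.79 and Tubb3 and Dcx of -0.7. These values share the contrast between days, and the libraries of 1 line and day are not independent points. The genes most like the mean profile of the 10 members, of 12872 candidates, were Rhox9 (0.77), Vgll3 (0.74), Rhox6 (0.73) and Lonrf3 (0.7), followed by Lfng, Lpxn and Adam8 (0.64 each) and Prrt4 (0.62). The members themselves had an r to that profile between -0.15 (Gad1) and 0.77 (Stmn4).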

How the data were processed

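Per the labels' protocols, ribosome-depleted total RNA was made into stranded paired-end libraries. Per the submitters' processing notes, reads were handled with bcl2fastq 2.17.1.14 and STAR 2.5.3a on GRCm38/mm10. The deposited values are whole-number counts per gene and library, taken as raw counts of the authors; 53.5% of nonzero counts are odd. For the counting program, the strand setting and the annotation release, nothing was stated in the sources used here. Of 51826 identifiers, 51633 (99.6%) matched the GENCODE annotation without version.

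The members and gene lists were chosen with earlier results of these data known. Counts were tested with edgeR 4.0.16 (R 4.3.3, limma 3.58.1) by the quasi-likelihood test after TMM scaling and filterByExpr (minimum count 10, minimum total 15), with Benjamini-Hochberg adjustment over all genes. Each day was fitted with its 9 libraries, each line with its 9, and differences between effects with 12. CPM have no pseudocount. Intervals (95%, exact) and floors (3 counts over a group) cover counting error only. The labels call the replicates biological without saying whether the cultures were separate, so p-values measure the spread between these samples. On simulated counts for the Quaking KO at day 10 (20123 genes), 99% of 100 genes changed by 1 on the log2 scale and 100% of those changed by 2 were recovered. For the change of the Sam68 effect from day 3 to day 10 (20650 genes) it was 85% and 100%. The changed genes had a mean of at least 1 CPM, and counts were drawn at the trended spread without a spread particular to each gene. These shares therefore do not cover members of lower level or wider spread.

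Named were all members, up to 3 called, non-overlapping genes per list with the largest fold change and a mean of at least 1 CPM at days 3 and 10, and the 8 genes most like the members' mean profile. Some genes that this rule names are not reported here. Alternatives were DESeq2 1.42.0 size factors, no filter, DESeq2's Wald test, a replicate block, the 6 compared libraries alone, and leaving out each library. Replicate numbers met a check for pairs where all 3 same-numbered pairs deviated together with a correlation over 0.1. This is a check on the data and not from the labels. It held for the Quaking KO against wild type at day 3 (r of 0.57, 0.25 and 0.18). The values printed for that comparison are nonetheless from the fit without pairs. There the blocked fit changed no member's call and called 1891 genes, against 1381 without the block. Elsewhere 1 or more pairs fell under that correlation, although some were positive (wild type, day 3 against day 0: 0.33, 0.05 and 0.36). Replicate 1 also had the highest share of mt-Rnr2 counts in the wild-type and Quaking KO groups of each day (9.34 to 14.8%, against 5.64 to 11.8% in replicates 2 and 3).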

Additional observations from a re-analysis of the deposited data

Results flagged for a closer look

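For 18 results the effect of a knockout line on a member differed between days by edgeR's test of the difference itself (log2 change of the effect ± SE, adjusted p). In the Quaking KO these were 4 of 8 tested members from day 0 to day 3, where 15.9% of all genes were called. From day 3 to day 10 they were 4 of 10, against 3.58%. In the Sam68-labelled line they were 5 of 9 (33.8% of all genes) and 5 of 10 (54.2%) at the same steps. The last share is near that of all genes.

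For the Quaking KO, the effect at day 3 minus that at day 0 was 1.58 ± 0.07 for Stmn2 (1.26e-10) and 0.81 ± 0.13 for Map2 (0.000237), both lower than wild type at day 0. It was -0.42 ± 0.09 for Tubb3 (0.00251) and -0.85 ± 0.2 for Gad1 (0.00704). From day 3 to day 10 the effect moved up for Stmn4 by 3.56 ± 0.74 (0.0161), Tubb3 by 1.37 ± 0.35 (0.0454), Gap43 by 0.95 ± 0.18 (0.00952) and Stmn2 by 0.65 ± 0.12 (0.0113). The Tubb3 change lost its call in 10 of 12 fits that left out 1 library, with adjusted p from 0.0517 to 0.107.

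For the line labelled Sam68 KO, the effect at day 3 minus that at day 0 was 2.91 ± 0.07 for Stmn2 (1.25e-16), 1.35 ± 0.08 for Tubb3 (8.2e-11), 1.31 ± 0.15 for Elavl3 (7.93e-07) and -4.55 ± 0.24 for Gad1 (1.65e-11). The value for Stmn4 was 4.0 ± 0.85 (0.000939), and it rests on 2 counts over the day 0 libraries of that line. Stmn4 entered this fit only through the Sam68-labelled day 3 libraries, the group where it was high. From day 3 to day 10 the effect moved by 3.43 ± 0.32 for Gad1 (9.66e-07), -2.46 ± 0.35 for Elavl3 (4.17e-05), -1.17 ± 0.18 for Map2 (7.1e-05) and -1.11 ± 0.21 for Tubb3 (0.000464). The change of 0.5 ± 0.17 for Gap43 (0.0181) was lost without Sam68 KO day 3 replicate 1 (0.31, 0.134) or 2 (0.39, 0.0936), or without wild-type day 3 replicate 2 (0.45, 0.0549) or 3 (0.33, 0.127). Elavl4 (-0.7, 0.0316) was called when replicate 3 of the Sam68-labelled day 10 libraries was left out. Stmn4 was called in 2 of 12 fits that left out 1 library, among them the fit without replicate 1 of that group (-1.1, 0.0493).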

How the results depend on the processing

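Of 1927 values of members under other settings, 1813 kept their direction and their side of the threshold, 45 lost a call, 30 gained one and 39 changed sign, 37 of these when 1 library was left out. Each result that changed sign had not passed the test, and the cause was not tested. Without a filter Map2 in the Quaking KO against wild type at day 3 was -0.0048, and with the 6 libraries alone Stmn2 in the Quaking KO from day 0 to day 3 was 0.00018. The number of genes whose Quaking KO effect changed from day 3 to day 10 was 753, against 1338 without a filter and 1214 with DESeq2.

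Leaving out 1 library gave 370 to 1088 genes for that change (lowest without wild-type day 3 replicate 2) and 2 to 4 members. For the Quaking KO against wild type it gave 749 to 1641 genes (1381 with all libraries) and 1 to 2 members at day 3, lowest without wild-type day 3 replicate 2, and 1399 to 3139 genes (2392) at day 10, lowest without Quaking KO replicate 2. For the Sam68 label against wild type at day 10 it gave 8828 to 11730 genes (10377 with all libraries) and 2 to 5 members.

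Values that crossed 0 with 1 library left out had these ranges. In the Quaking KO against wild type at day 3, Map2 went from -0.03 to 0.05, Tubb3 from -0.00097 to 0.10, Stmn4 from -0.53 to 0.12 and Dcx from -0.11 to 0.20. At day 10 Map2 went from -0.01 to 0.52 and Stmn2 from -0.12 to 0.06. For the Sam68 label, Elavl4 went from -0.02 to 0.20 at day 0 and from -0.05 to 0.21 at day 3, and Tubb3 from -0.25 to 0.05 at day 10. Pnoc between the knockout lines went from -0.02 to 0.28. Over time, the ranges were -0.03 to 0.04 for Stmn2 (Quaking KO, day 3 against 0), -0.38 to 0.16 for Map2 (Quaking KO, day 10 against 3) and -0.07 to 0.15 for Gap43 (Sam68 label, day 3 against 0). For the Sam68 label from day 3 to 10 they were -0.22 to 0.10 for Stmn4 and -0.13 to 0.21 for Dcx. Among changes of effect, Dcx went from -0.35 to 1.05 (Quaking KO, day 3 minus 0), from -0.33 to 2.48 (Sam68 label, day 3 minus 0) and from -0.41 to 0.0026 (Sam68 label, day 10 minus 3), Map2 from -0.10 to 0.01 and Elavl4 from -0.12 to 0.14 (both Sam68 label, day 3 minus 0).

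The replicate block lost the call of Elavl4 in the Quaking KO at day 0 (adjusted p = 0.0606) and gave calls over time in the Quaking KO to Pnoc (0.0466, day 3 against 0) and Tubb3 (0.0401, day 10 against 3); it changed no other member's call. Outside day 3 of the Quaking KO against wild type the numbers did not meet the check for pairs. Missing that cutoff does not show that pairing is absent, so which of the blocked and unblocked values holds there cannot be decided. Dcx had 1 to 3 counts per group at day 0 and Pnoc 0 to 7 at day 3, which limits ratios against those groups, and fitted folds of these moved when the library holding the count was left out (Pnoc in wild type from day 3 to 10: 11.87 without day 3 replicate 2).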
